A study of Homo sapiens with 7 samples.

Results

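The amino acid transporter families are the solute carrier (SLC) genes of families 1, 3, 6, 7, 36, 38 and 43, chosen by symbol alone, and 46 of the 33117 genes listed in the files carry such a symbol. They were measured by RNA sequencing in 769-P, an established renal carcinoma line of human origin (clear cell type), in 2 libraries of Lat-M1, 2 of Lat-M2 and 3 of PA. The series title calls Lat-M cells latent metastatic. The labels do not expand PA, do not say how the Lat-M cells were obtained and do not say what the first number of Lat-M1 and Lat-M2 stands for, so these are treated as separate groups. All 3 groups share the line and a culture medium with glutamine, antibiotics and 10% fetal bovine serum, and no treatment is named. The libraries are Lat-M1-1, Lat-M1-2, Lat-M2-1, Lat-M2-2, PA1, PA2 and PA3. Whether they came from separate cultures is not stated, so p-values reflect only how these libraries vary, and that variation may be technical.

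Amino acids cross membranes on carriers of several designs. Heterodimeric carriers pair a heavy chain, SLC3A1 or SLC3A2, which brings the complex to the cell surface, with a light chain of the SLC7 family, which moves the amino acid. SLC1 and SLC6 carriers are driven mainly by sodium, SLC38 carriers move glutamine and other neutral amino acids, SLC36 carriers are coupled to protons and SLC43 carriers are facilitators. In the kidney, SLC3A1 with SLC7A9, and SLC1A1, SLC6A19 and SLC6A20, take up filtered amino acids at the brush border of the proximal tubule, and inherited loss of SLC3A1 or SLC7A9 causes cystinuria. The rule by symbol also admits carriers of other molecules, among them SLC6A2, SLC6A3 and SLC6A4 (noradrenaline, dopamine and serotonin), SLC6A6 (taurine), SLC6A8 (creatine) and SLC43A3 (nucleobases).

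Values are TPM, an abundance scaled for transcript length and to the same sum in each library, which leaves the depth unknown. Tests used limma on log2(TPM + 1) with Benjamini-Hochberg adjustment over the 16724 genes that averaged 1 TPM or more, and a gene is said to rise, fall or be called at an adjusted p under 0.05. Log2 fold changes are on the log2(TPM + 1) scale, which understates the change of genes near 0 TPM, and their errors are standard errors. Of 16 renal epithelial and clear cell carcinoma markers, 12 reached 1 TPM in a library. The renal factors PAX8 (65.6 to 87.9 TPM) and LHX1 (23.6 to 41.5 TPM) were present in all 7 libraries, and PAX2 was at 0.633 to 1.63 TPM. The markers under 1 TPM were CA9, a hypoxia target typical of this cancer (at most 0.156 TPM), KRT19 (0.0761), NDUFA4L2 (0.105) and LRP2 (0.0492). Of 8 fibroblast and pericyte markers, COL1A1 alone reached 1 TPM in a library, and the list summed to 20.0 to 21.7 TPM in Lat-M1, 3.12 to 4.1 TPM in Lat-M2 and 1.42 to 1.76 TPM in PA. Of 4 listed leukocyte markers, CD68 and ITGAM reached 1 TPM, PTPRC stayed at or under 0.0121 TPM, and the list summed to 19.0 to 20.3 TPM in Lat-M1, 41.9 to 44.6 TPM in Lat-M2 and 47.0 to 50.1 TPM in PA. The part of these markers in the results was not tested. Structural RNAs (RN7SL1, RN7SL2, RN7SK and RMRP) took 18.6% to 21.9% of all TPM in Lat-M1, 22.9% to 27.7% in Lat-M2 and 29.5% to 31.8% in PA. Over all tested genes the median log2 fold change was 0.16 for Lat-M1 against PA and 0.14 for Lat-M2 against PA, so calls after median-ratio scaling, which removes this shift, are given beside the unscaled ones.

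Amino acid transporter transcripts were dominated by a few genes. The 46 members summed to 1212 and 1257 TPM in Lat-M1, 1378 and 1255 TPM in Lat-M2 and 1013 to 1058 TPM in PA. SLC38A1 and SLC38A2, sodium-coupled carriers of glutamine and other small neutral amino acids, ranked first and second in every library and together made 45.2% to 45.9% of that sum in Lat-M1, 43.6% to 44.7% in Lat-M2 and 40.1% to 42.7% in PA. The gene ranked next was SLC1A5, the ASCT2 carrier of glutamine, in Lat-M1, and the heavy chain SLC3A1 in Lat-M2 and PA. Of the 46 members, 23 averaged 1 TPM or more and were tested, and the other 23 had means of at most 0.908 TPM. Of these low members, 12 stayed under 0.1 TPM in every library, including the glutamate carriers SLC1A2 and SLC1A3 (the last listed at 0 TPM in all but Lat-M2-2, at 0.0162 TPM) and the monoamine carriers SLC6A2, SLC6A3 and SLC6A4. SLC6A19 and SLC7A8 were not among the listed genes and were not analysed here.

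**Figure D1:**
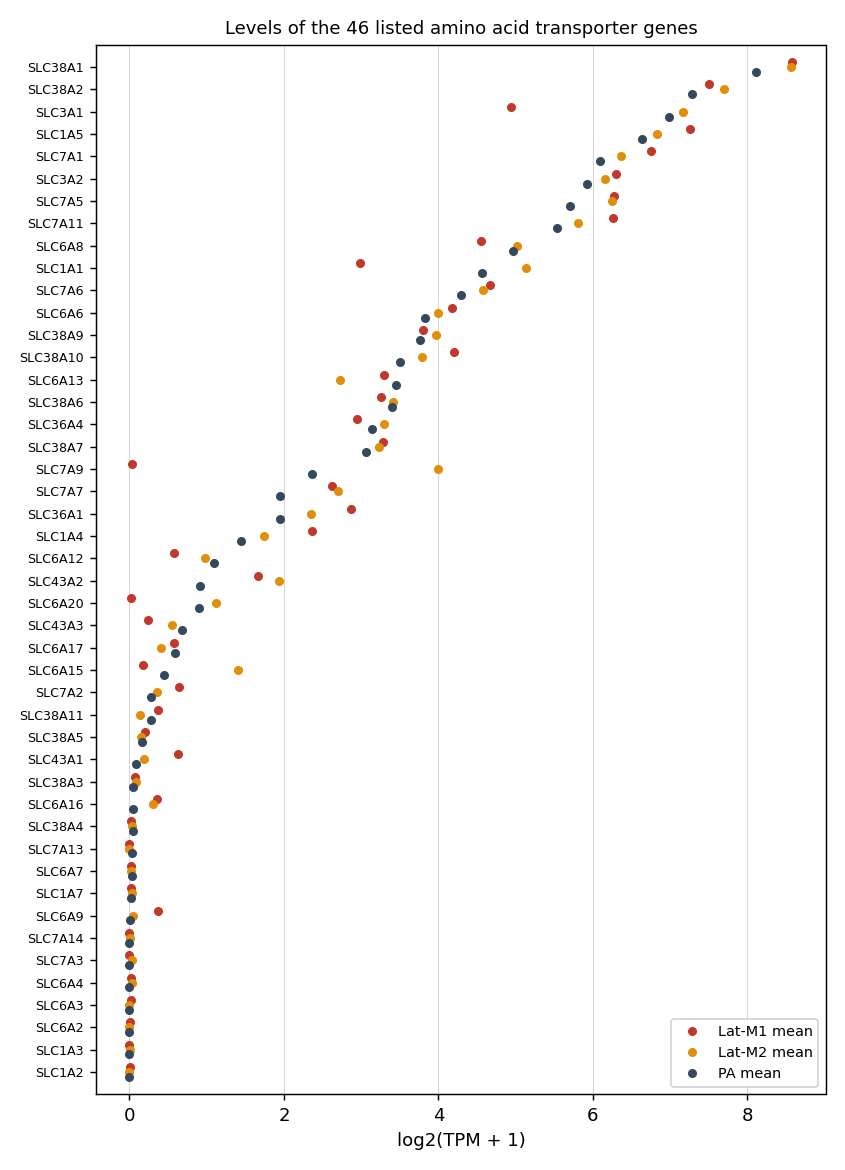
Mean level of each of the 46 members in Lat-M1, Lat-M2 and PA, as log2(TPM + 1), ordered by the PA mean. SLC38A1 is at the top in all 3 groups, the SLC3A1, SLC1A1, SLC7A9 and SLC6A20 points of Lat-M1 lie well to the left of the others, and the 12 genes under 0.1 TPM in every library sit at the left edge.

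The carriers of the renal brush border set Lat-M1 apart from both other groups. SLC3A1, SLC7A9 and SLC1A1 all fell in Lat-M1 against PA, and they were the only 3 of the 23 tested members called lower by at least 2-fold there (background 2.75% of all tested genes). In Lat-M2 against PA, SLC7A9 and SLC1A1 rose and SLC3A1 did not pass the test. In bulk RNA, fewer cells that express a gene and less of its RNA per cell cannot be told apart.

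SLC3A1, the heavy chain of the brush border cystine and dibasic amino acid carrier, was at 29.5 and 29.9 TPM in Lat-M1, 147 and 138 TPM in Lat-M2, and 124, 127 and 127 TPM in PA. The Lat-M1 libraries lay far below all others, and those of Lat-M2 lay above those of PA. The log2 fold change was -2.04 ± 0.052 for Lat-M1 against PA (limma adjusted p = 3.41e-07), 0.18 ± 0.052 for Lat-M2 against PA (limma adjusted p = 0.0579) and 2.23 ± 0.057 for Lat-M2 against Lat-M1 (limma adjusted p = 5.91e-07). Without Lat-M2-2 the Lat-M2 value against PA was 0.22 and passed the test. In GENCODE v29 SLC3A1 overlaps PREPL, a gene on the opposite strand, and the submitters' use of strand is not given in the sources used here. PREPL averaged 71 TPM in Lat-M1, 47.8 TPM in Lat-M2 and 36.4 TPM in PA. Against PA it ran the other way from SLC3A1 in Lat-M1, while in Lat-M2 both genes had a higher mean. The part of PREPL reads in the SLC3A1 values was not tested.

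SLC7A9, the light chain that pairs with SLC3A1, was listed at 0 TPM in Lat-M1-1 and at 0.0377 TPM in Lat-M1-2. It was at 15.5 and 14.4 TPM in Lat-M2, and at 3.72, 4.72 and 3.97 TPM in PA. Its 3 groups did not overlap, with Lat-M2 on top and Lat-M1 at the bottom. It rose 3.62-fold in mean TPM in Lat-M2 against PA (log2 fold change 1.64 ± 0.12, limma adjusted p = 0.000382) and fell in Lat-M1 (-2.33 ± 0.12, limma adjusted p = 9.33e-06). Lat-M2 against Lat-M1 gave 3.97 ± 0.13 (limma adjusted p = 1.91e-06), the largest difference of any tested member in the 3 pairwise comparisons.

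SLC1A1, the EAAT3 carrier of glutamate, aspartate and cysteine, was at 6.5 and 7.32 TPM in Lat-M1, 35 and 33.1 TPM in Lat-M2, and 21.9, 23.7 and 22.1 TPM in PA. Again no groups overlapped and the order was the same as for SLC7A9. In mean TPM, Lat-M1 stood at 0.306 of PA and Lat-M2 at 1.51 of PA. SLC1A1 fell in Lat-M1 (log2 fold change -1.58 ± 0.072, limma adjusted p = 5.78e-06) and rose in Lat-M2 (0.57 ± 0.072, limma adjusted p = 0.00497) against PA, and Lat-M2 exceeded Lat-M1 by 2.15 ± 0.079 (limma adjusted p = 2.97e-06).

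SLC6A20, a sodium-driven carrier of proline and other imino acids, was too low for the filter, with a mean of 0.71 TPM over all libraries. It was at 0.0142 and 0.0147 TPM in Lat-M1, 1.18 TPM in each Lat-M2 library, and 0.773, 0.968 and 0.842 TPM in PA. The order of the groups matched that of SLC7A9 and SLC1A1. In the fit without a filter it fell in Lat-M1 against PA (log2 fold change -0.87 ± 0.1, limma adjusted p = 0.00228), did not pass for Lat-M2 against PA (0.23 ± 0.1, limma adjusted p = 0.291) and was higher in Lat-M2 than in Lat-M1 (1.10 ± 0.11, limma adjusted p = 0.00181). Calls of SLC3A1, SLC7A9 and SLC1A1 were the same after median-ratio scaling.

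**Figure D2:**
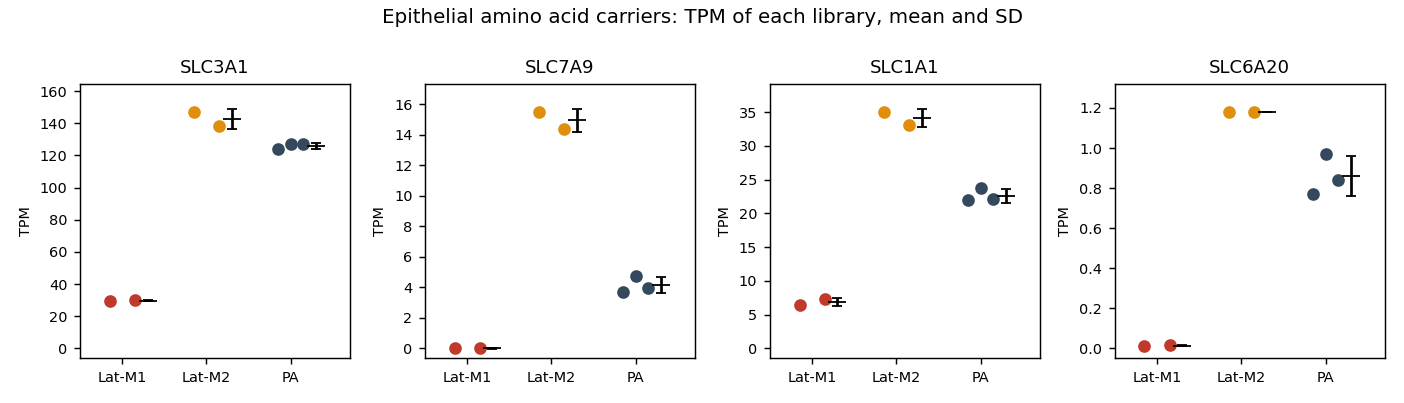
TPM of SLC3A1, SLC7A9, SLC1A1 and SLC6A20 in each library (points) with the mean and SD of each group (black), on separate linear axes. Lat-M1 libraries are lowest for all 4 genes, at 29.5 and 29.9 TPM for SLC3A1 and at or under 0.0377 TPM for SLC7A9, and Lat-M2 libraries are highest. The share of all genes with this order of groups was not counted.

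The promoters of the brush border carriers that move together are shown as far as the RefSeq table holds them, as windows of 250 bases before to 50 bases after the gene start (GRCh38.p14, a later build than the submitters' hg19). They lie at chr19:32869718-32870017 on the minus strand for SLC7A9, chr9:4490218-4490517 on the plus strand for SLC1A1 and chr3:45796487-45796786 on the minus strand for SLC6A20. Capitals mark GTTAAT or its reverse complement ATTAAC, letters found in sites of the kidney and liver factor HNF1 and chosen after the values were seen.
SLC7A9: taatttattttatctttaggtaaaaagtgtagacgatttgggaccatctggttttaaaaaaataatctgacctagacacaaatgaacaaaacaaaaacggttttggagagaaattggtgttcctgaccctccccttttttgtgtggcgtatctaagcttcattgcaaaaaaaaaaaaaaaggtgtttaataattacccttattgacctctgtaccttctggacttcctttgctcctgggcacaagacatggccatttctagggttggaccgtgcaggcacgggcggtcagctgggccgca
SLC1A1: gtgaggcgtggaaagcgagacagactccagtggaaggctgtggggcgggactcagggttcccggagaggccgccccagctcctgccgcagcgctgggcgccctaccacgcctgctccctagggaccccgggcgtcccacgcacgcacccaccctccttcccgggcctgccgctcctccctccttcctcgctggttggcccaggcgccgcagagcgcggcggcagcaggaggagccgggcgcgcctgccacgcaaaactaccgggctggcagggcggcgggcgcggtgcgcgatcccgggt
SLC6A20: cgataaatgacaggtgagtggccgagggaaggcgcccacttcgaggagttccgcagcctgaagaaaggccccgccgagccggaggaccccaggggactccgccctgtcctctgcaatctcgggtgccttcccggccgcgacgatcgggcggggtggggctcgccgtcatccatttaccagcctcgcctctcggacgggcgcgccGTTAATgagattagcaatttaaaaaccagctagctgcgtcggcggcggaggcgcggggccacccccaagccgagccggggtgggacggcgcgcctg

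The windows differed in base composition, with 41% G and C for SLC7A9, 74.7% for SLC1A1 and 68% for SLC6A20. Of 33 member promoters in the table, that of SLC6A20 alone held GTTAAT on either strand, 46 bases before the start, against 6.89% of all 27305 promoters. The letters TGATGCAA or TTGCATCA, a core of the amino acid response element bound by ATF4, were in 1 of the 33, that of SLC1A3, and in 0.923% of all promoters. None of the 20 tested members with a promoter in the table held the exact letters of either motif in this window. Near matches were not searched, so sites that differ by a letter were not counted.

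Heavy and light chains can be compared within a library, where scaling cancels. As a share of the TPM of its partner SLC3A1, SLC7A9 was at 0% and 0.126% for the Lat-M1 libraries, 10.6% and 10.4% for those of Lat-M2, and 3.01%, 3.72% and 3.14% for those of PA. The balance between the heavy chains also differed. SLC3A2, the heavy chain of most tissues, stood at 2.59 and 2.64 times SLC3A1 in Lat-M1, 0.493 and 0.492 times in Lat-M2, and 0.438, 0.49 and 0.492 times in PA. SLC3A2 was the more abundant heavy chain in Lat-M1 only. The 4 tested light chains of SLC3A2 (SLC7A5, SLC7A6, SLC7A7 and SLC7A11) summed to 2.28 and 2.36 times SLC3A2 in Lat-M1, 2.28 and 2.21 times in Lat-M2, and 2.09, 1.9 and 1.97 times in PA. That ratio was slightly lower in all PA libraries than in any Lat-M library.

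**Figure D3:**
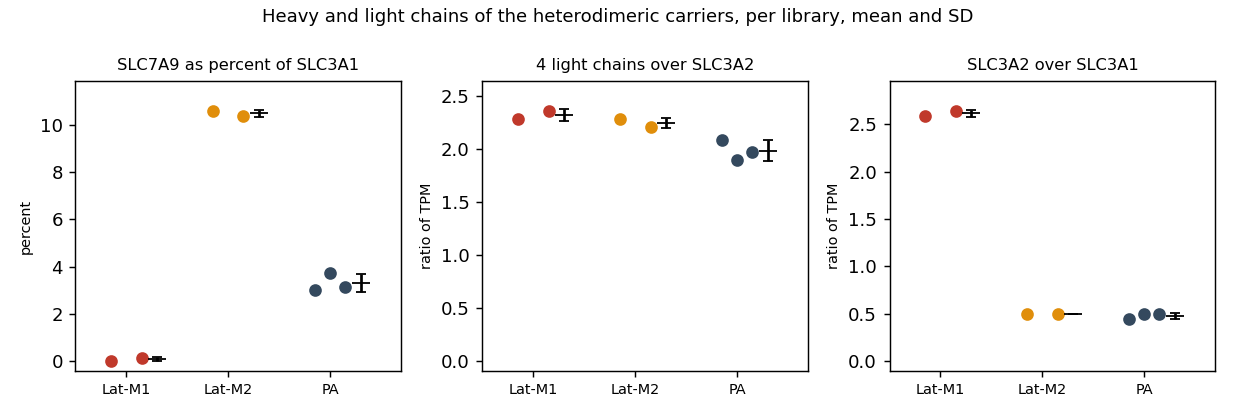
Ratios of TPM between heavy and light chains in each library (points) with group mean and SD (black): SLC7A9 as a percent of SLC3A1, the sum of SLC7A5, SLC7A6, SLC7A7 and SLC7A11 over SLC3A2, and SLC3A2 over SLC3A1. Lat-M2 stands highest in the first panel, at 10.4% to 10.6%, and Lat-M1 in the last, at 2.59 to 2.64.

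Of the 23 tested members, 18 were called in Lat-M1 against PA, 14 higher and 4 lower, where 44.8% of all tested genes were called (33.2% higher and 11.6% lower). The members' median log2 fold change was 0.37, against 0.16 for all tested genes. After median-ratio scaling 13 were higher and 8 lower, where 24.0% and 23.0% of all tested genes were. SLC38A2 (0.22 ± 0.063, limma adjusted p = 0.0256) lost its call on scaling and without PA1 (0.23), PA2 (0.19), PA3 (0.23), Lat-M1-1 (0.23) or Lat-M1-2 (0.21), and SLC6A13, SLC36A4, SLC38A6 and SLC38A9 gained one as lower.

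SLC7A11, the light chain that exchanges cystine for glutamate, was at 74.5 and 76.3 TPM in Lat-M1, 57.7 and 52 TPM in Lat-M2, and 45.3, 44.1 and 46.4 TPM in PA. The groups did not overlap, with Lat-M1 on top. Lat-M1 rose against PA by 0.72 ± 0.062 on the log2 scale (limma adjusted p = 0.000109) and exceeded Lat-M2, with -0.45 ± 0.068 for Lat-M2 against Lat-M1 (limma adjusted p = 0.00212). In Lat-M1 the cystine exchanger stood highest and the brush border cystine carrier lowest. In Lat-M2, however, SLC7A11, SLC3A1 and SLC7A9 all lay above all PA libraries. A link between these carriers was not tested.

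SLC7A1, the main carrier of arginine and lysine into most cells, was at 102 and 111 TPM in Lat-M1, 86.1 and 77 TPM in Lat-M2, and 64.7, 67.3 and 69.3 TPM in PA. It had the same order of groups, without overlap. Its rise in Lat-M1 was 0.66 ± 0.072 (limma adjusted p = 0.000336). SLC1A5 was at 151 and 153 TPM in Lat-M1, 117 and 108 TPM in Lat-M2, and 93.6, 101 and 100 TPM in PA, and rose in Lat-M1 (log2 fold change 0.62 ± 0.061, limma adjusted p = 0.000206). SLC1A4, of the same family, a carrier of alanine, serine and cysteine, was at 4.3 and 3.97 TPM in Lat-M1, 2.51 and 2.17 TPM in Lat-M2, and 1.66, 1.72 and 1.82 TPM in PA, and rose in Lat-M1 (0.91 ± 0.12, limma adjusted p = 0.000803). For SLC1A5 and SLC1A4 the Lat-M2 difference from PA did not pass (limma adjusted p = 0.0717 and 0.14), while without Lat-M2-2 that of SLC1A5 did, at 0.25 on the log2 scale.

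Further members that rose in Lat-M1 had smaller or less steady changes. SLC3A2 was at 76.5 and 79.1 TPM in Lat-M1, 72.3 and 68.1 TPM in Lat-M2, and 54.1, 62.2 and 62.2 TPM in PA, and rose by 0.38 ± 0.076 on the log2 scale in Lat-M1 (limma adjusted p = 0.00552). SLC6A6, the taurine carrier, was at 16.9 and 17 TPM in Lat-M1, 15.4 and 14.4 TPM in Lat-M2, and 13.1 to 13.4 TPM in PA (0.34 ± 0.06 for Lat-M1 against PA, limma adjusted p = 0.00333). SLC38A10, an SLC38 family carrier, was at 16.9 and 17.9 TPM in Lat-M1, 14.1 and 11.5 TPM in Lat-M2, and 8.15 to 11.5 TPM in PA. Its rise in Lat-M1 (0.72 ± 0.15, limma adjusted p = 0.00837) was lost without Lat-M1-2, at 0.68. SLC6A8, the creatine carrier, was the other fall, at 22.5 and 22.4 TPM in Lat-M1, 32.4 and 30.6 TPM in Lat-M2, and 28.3, 32.4 and 29.6 TPM in PA (-0.40 ± 0.071 for Lat-M1 against PA, limma adjusted p = 0.00316).

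In Lat-M2, 12 of the 23 tested members were called against PA, 11 higher and 1 lower, where 14.9% of all tested genes were called (12.7% higher and 2.24% lower). Scaling gave 7 higher and 1 lower, where 7.47% and 8.41% of all tested genes were. Besides SLC7A9, only SLC43A2 changed by at least 2-fold (background 1.49%). Rises of SLC7A1, SLC7A6, SLC7A11 and SLC36A1 (0.28, 0.28, 0.27 and 0.41 on the log2 scale) lost their calls on scaling and without each library in turn, except that SLC7A1 (0.36) and SLC7A11 (0.35) kept theirs without Lat-M2-2. Those of SLC7A5, SLC7A7 and SLC43A2 lost theirs without Lat-M2-1, at 0.47, 0.69 and 0.99. Calls of SLC1A1, SLC7A9, SLC38A1, SLC38A2 and SLC6A13 remained in every alternative run.

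In Lat-M1 and in Lat-M2, 9 members were called higher against PA (SLC7A1, SLC7A5, SLC7A6, SLC7A7, SLC7A11, SLC36A1, SLC38A1, SLC38A2 and SLC43A2), in comparisons that share the PA libraries. Singly, 33.2% of all tested genes were higher in Lat-M1 and 12.7% in Lat-M2. The share higher in both was not counted over all genes, so these 9 are a description of the members only. SLC7A5, the LAT1 light chain for leucine and other large neutral amino acids, was at 71.9 and 80.1 TPM in Lat-M1, 78.1 and 71.3 TPM in Lat-M2, and 46.4, 53.7 and 53.4 TPM in PA. Every Lat-M library lay above every PA library. The log2 fold change was 0.56 ± 0.088 in Lat-M1 (limma adjusted p = 0.00185) and 0.54 ± 0.088 in Lat-M2 (limma adjusted p = 0.0121). The pseudogene SLC7A5P2, a near copy with which reads could be shared, stood at 2.68 to 12.3 TPM.

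SLC38A1 was at 378 and 387 TPM in Lat-M1, 399 and 353 TPM in Lat-M2, and 276, 266 and 281 TPM in PA. It rose by 0.48 ± 0.066 in Lat-M1 (limma adjusted p = 0.00103) and by 0.45 ± 0.066 in Lat-M2 (limma adjusted p = 0.00873) on the log2 scale. SLC38A2 was at 178 and 181 TPM in Lat-M1, 216 and 195 TPM in Lat-M2, and 157, 149 and 157 TPM in PA, and rose in Lat-M2 by 0.41 ± 0.063 (limma adjusted p = 0.0103). Its smaller rise in Lat-M1 went to 0.04 on scaling (limma adjusted p = 0.426) and was lost without any single PA or Lat-M1 library. Both genes were above all PA libraries in each Lat-M library.

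SLC7A7, SLC7A6, SLC43A2 and SLC36A1 were also called higher in both. SLC7A7, a light chain for cationic and neutral amino acids at the basolateral side of kidney cells, was at 4.99 and 5.27 TPM in Lat-M1, 5.76 and 5.19 TPM in Lat-M2, and 3.1, 2.51 and 2.96 TPM in PA (0.67 ± 0.11 and 0.75 ± 0.11 for Lat-M1 and Lat-M2 against PA). SLC7A6, a related light chain, was at 23.4 and 25.2 TPM in Lat-M1, 23.4 and 22.2 TPM in Lat-M2, and 18.3, 17.7 and 19.8 TPM in PA (0.37 ± 0.07 and 0.28 ± 0.07). Its overlapping neighbour on the opposite strand, SLC7A6OS, was at 12.3 to 15.4 TPM. SLC43A2, a facilitator of large neutral amino acids, was at 2.25 and 2.08 TPM in Lat-M1, 2.91 and 2.71 TPM in Lat-M2, and 0.794, 0.901 and 0.929 TPM in PA, with rises of 0.76 ± 0.14 in Lat-M1 (limma adjusted p = 0.00362) and 1.02 ± 0.14 in Lat-M2 (limma adjusted p = 0.00626). SLC36A1, a proton-coupled carrier found on lysosomes, was at 6.03 and 6.58 TPM in Lat-M1, 4.19 and 4.05 TPM in Lat-M2, and 2.94, 2.98 and 2.64 TPM in PA, and rose by 0.92 ± 0.097 in Lat-M1 (limma adjusted p = 0.000297).

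**Figure D4:**
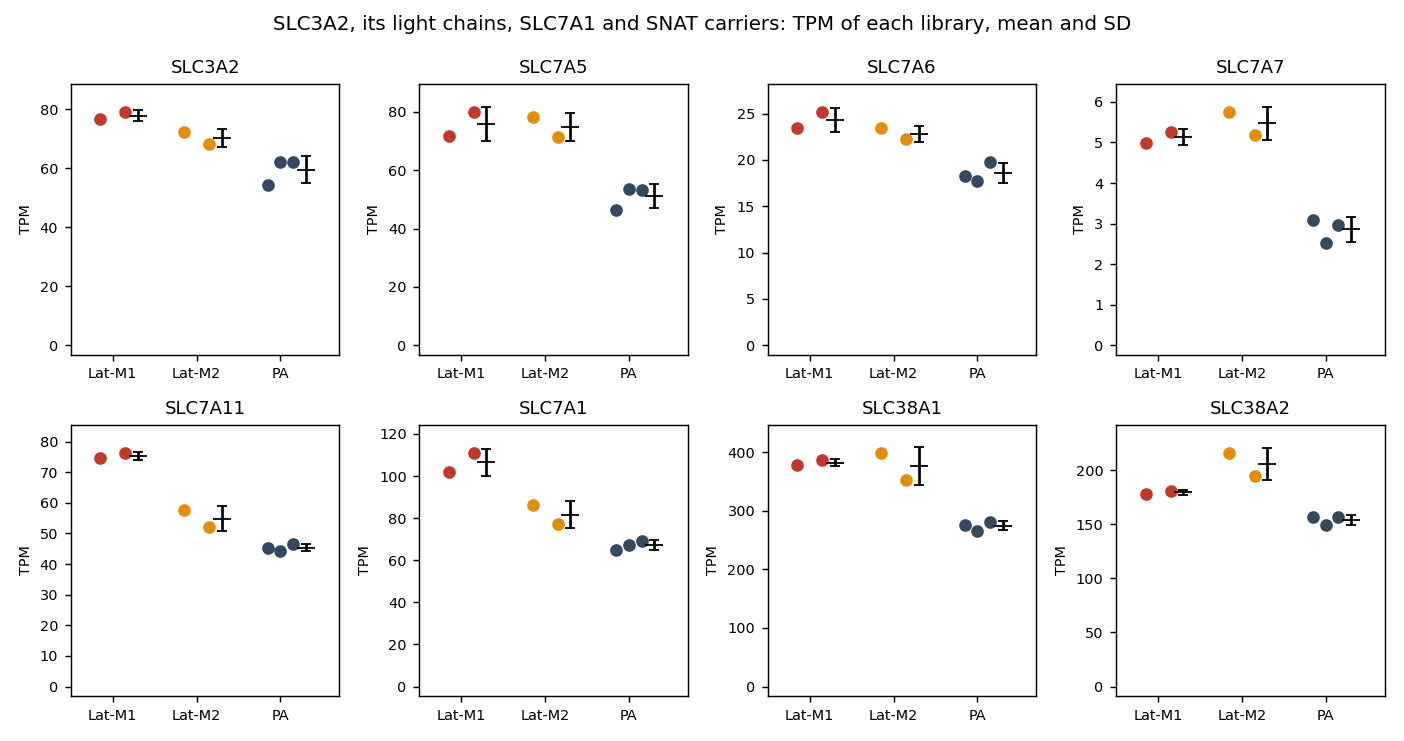
TPM of SLC3A2, 4 of its light chains, SLC7A1, SLC38A1 and SLC38A2 in each library (points) with group mean and SD (black). Lat-M1 and Lat-M2 libraries lie above the PA libraries in all 8 panels, but the share of all genes placed in this way was not counted. SLC7A11 and SLC7A1 are highest in Lat-M1 (74.5 to 76.3 and 102 to 111 TPM), and SLC38A2 is highest in Lat-M2 (195 to 216 TPM).

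SLC6A13, a carrier of GABA and related compounds in kidney and liver, was the only tested member called lower in Lat-M2 against PA. It was at 8.57 and 9.1 TPM in Lat-M1, 5.66 and 5.59 TPM in Lat-M2, and 9.11, 10.8 and 9.85 TPM in PA. The fall in Lat-M2 was -0.72 ± 0.087 (limma adjusted p = 0.00414), and Lat-M2 was also below Lat-M1 (-0.57 ± 0.095, limma adjusted p = 0.00342).

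Of SLC36A4, SLC38A6, SLC38A7 and SLC38A9, SLC36A4 alone was called in any pairwise comparison. SLC38A9, the lysosomal arginine sensor of the mTORC1 pathway, was at 12.5 and 13.2 TPM in Lat-M1, 15.2 and 14.2 TPM in Lat-M2, and 12.3, 12.2 and 13.3 TPM in PA, and missed the test in all 3 comparisons. Its log2 fold change in Lat-M1 was 0.03 ± 0.07 unscaled and -0.13 ± 0.041 scaled, where it was called lower (scaled limma adjusted p = 0.0389). SLC38A7, a lysosomal glutamine carrier, and SLC38A6 also missed all 3 tests, at 6.88 to 9.33 and 7.88 to 9.7 TPM over all libraries. SLC38A6 overlaps TRMT5 on the opposite strand, which was at 10.8 to 13 TPM, and AL160236.2 on its own strand, at 46.7 to 64.1 TPM. SLC36A4, a relative of SLC36A1, was at 6.81 and 6.53 TPM in Lat-M1, 9.16 and 8.51 TPM in Lat-M2, and 8.23, 7.15 and 7.99 TPM in PA, and passed only for Lat-M2 against Lat-M1 (0.36 ± 0.092, limma adjusted p = 0.0209). That call was lost without Lat-M2-1 (0.31), without Lat-M1-1 (0.39) and without Lat-M1-2 (0.33).

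The direct comparison of Lat-M2 with Lat-M1 called 11 of 23 tested members, 5 higher (SLC1A1, SLC3A1, SLC7A9, SLC6A8 and SLC36A4) and 6 lower (SLC1A4, SLC1A5, SLC6A13, SLC7A1, SLC7A11 and SLC36A1), where 36.0% of all tested genes were called (16.0% higher and 20.1% lower). Scaling gave 7 higher and 7 lower, where 21.6% and 22.6% of all tested genes were. This comparison is also the test of whether the effects of Lat-M2 and Lat-M1 against PA differ. The rises by at least 2-fold were those of SLC1A1, SLC3A1 and SLC7A9 (background 3.44% higher by at least 2-fold). The falls were smaller, from -0.39 to -0.62 on the log2 scale. Without Lat-M1-2 the calls of SLC7A1 (-0.32) and SLC36A1 (-0.46) were lost, and without Lat-M1-1 that of SLC1A4 (-0.57). SLC38A2 gained a call as higher with scaling (0.22), with structural RNAs left out (0.29) and without Lat-M2-2 (0.27). SLC38A9 gained a call as higher with scaling (0.20) and with structural RNAs left out (0.27), and SLC38A10 as lower without PA1 (-0.43).

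**Figure D5:**
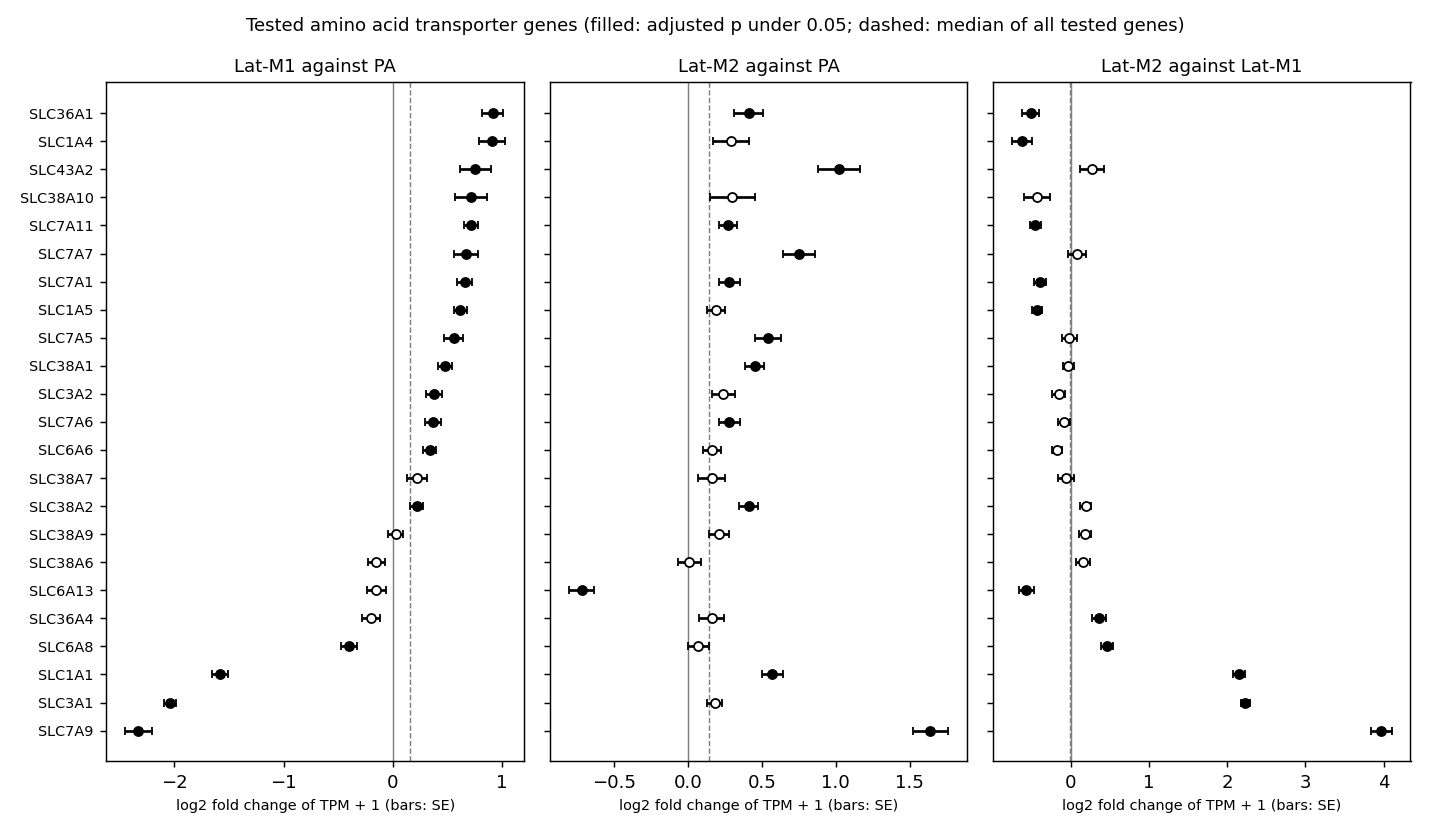
Log2 fold change of TPM + 1 with SE for the 23 tested members in Lat-M1 against PA, Lat-M2 against PA and Lat-M2 against Lat-M1, ordered by the first. Filled points have a limma adjusted p under 0.05, dashed lines mark the median of all tested genes (0.16, 0.14 and -0.01), and SLC7A9, SLC3A1 and SLC1A1 lie at the left in the first panel and at the right in the last.

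With the 4 Lat-M libraries as a single group against PA, 4 of 23 tested members were called, all higher, where 2.9% of all tested genes were called and 2.51% were higher. These were SLC43A2 (0.89 ± 0.15, limma adjusted p = 0.0378), SLC7A7 (0.71 ± 0.11, limma adjusted p = 0.0334), SLC7A5 (0.55 ± 0.081, limma adjusted p = 0.0293) and SLC38A1 (0.46 ± 0.067, limma adjusted p = 0.0293). With libraries of the same Lat-M number as correlated repeats, 0.526% of all tested genes were called and all 4 of these calls were lost, at limma adjusted p = 0.0863 for SLC7A5 and SLC7A7, 0.0951 for SLC38A1 and 0.0983 for SLC43A2. Scaling left SLC7A5 and SLC38A1, where 0.682% of all tested genes were higher. In this fit the Lat-M1 and Lat-M2 libraries count as replicates of 1 group, and SLC3A1, SLC7A9 and SLC1A1 were at -0.93 ± 0.63, -0.34 ± 1.1 and -0.50 ± 0.61. No member was called without any one of PA1, PA2, PA3, Lat-M1-1, Lat-M1-2 or Lat-M2-1, where limma left 10 to 14 members at an unadjusted p under 0.05 and 18 to 91 of all 16724 genes were called. Without Lat-M2-2, 10 members and 1869 of all tested genes were called.

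Low members outside the filter were described from the fit without it, in which 23.6% of 32367 genes were called in Lat-M1 against PA, 4.72% in Lat-M2 against PA and 18.8% in Lat-M2 against Lat-M1. Of the 23 low members, 4 were called higher and 2 lower in Lat-M1 against PA (background 17.8% and 5.85%), and 1 higher and none lower in Lat-M2 against PA (3.86% and 0.862%). Lat-M2 against Lat-M1 gave 2 higher and 2 lower (8.02% and 10.8%). SLC43A1, a facilitator of large neutral amino acids, was at 0.533 and 0.554 TPM in Lat-M1, 0.139 and 0.144 TPM in Lat-M2, and 0.0582, 0.0985 and 0.0252 TPM in PA (0.54 ± 0.071 for Lat-M1 against PA, limma adjusted p = 0.00323). The other rises in Lat-M1 were SLC6A9, a glycine carrier (0.36), SLC6A16 (0.31) and SLC7A2, a carrier of cationic amino acids (0.36), and the other fall was SLC6A12, a carrier of betaine and GABA (-0.52). SLC6A15, a carrier of branched-chain amino acids and proline best known from neurons, was at 0.088 and 0.172 TPM in Lat-M1, 1.6 and 1.69 TPM in Lat-M2, and 0.336, 0.437 and 0.332 TPM in PA, and rose in Lat-M2 (0.95 ± 0.1, limma adjusted p = 0.0105). These low members apart from SLC6A20 and SLC43A1 are named after their values were seen.

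Other genes of amino acid handling were described from lists, to be read against the shares of all tested genes. Against PA these were 33.2% higher and 11.6% lower in Lat-M1, and 12.7% higher and 2.24% lower in Lat-M2. After scaling they were 24.0% and 23.0% in Lat-M1, and 7.47% and 8.41% in Lat-M2. The amino acid response list holds EIF2AK4, ATF4 and genes tied to the ATF4 response when amino acids run short. It had 16 of 21 higher and 3 lower in Lat-M1 and 7 higher and none lower in Lat-M2. Its medians were 0.42 and 0.19 on the log2 scale. After scaling there were 13 higher and 3 lower in Lat-M1 and 6 higher and 3 lower in Lat-M2. CHAC1, which breaks down glutathione, was at 13.3 and 15.7 TPM in Lat-M1, 8.5 and 8.53 TPM in Lat-M2, and 4.91, 5.69 and 6.55 TPM in PA (1.21 ± 0.12 in Lat-M1, limma adjusted p = 0.000223). PHGDH, the first enzyme of serine synthesis, was at 31 and 30.7 TPM in Lat-M1, and at most 0.0181 TPM in Lat-M2 and 0.155 TPM in PA. STC2, a secreted glycoprotein, fell in Lat-M1 (-1.78 ± 0.16, limma adjusted p = 0.000129). NUPR1, a stress-induced chromatin protein, rose in both Lat-M1 (0.96 ± 0.12, limma adjusted p = 0.000639) and Lat-M2 (1.76 ± 0.12, limma adjusted p = 0.000311).

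Enzymes of glutamine, glutamate and cysteine had 6 of 14 tested members higher and 1 lower in Lat-M1, and 4 higher and 1 lower in Lat-M2. Scaled values gave 4 higher and 4 lower in Lat-M1 and 2 higher and 3 lower in Lat-M2. GLUL, which makes glutamine from glutamate, was at 26.9 and 27.6 TPM in Lat-M1, 14.9 and 13.8 TPM in Lat-M2, and 5, 4.79 and 4.91 TPM in PA. It rose in both, by 2.26 ± 0.066 (limma adjusted p = 6.84e-07) and 1.38 ± 0.066 (limma adjusted p = 6.24e-05) on the log2 scale. Branched-chain and arginine enzymes had 3 of 12 higher and 3 lower in Lat-M1, among them GAMT, the last enzyme of creatine synthesis (-1.52 ± 0.13, limma adjusted p = 0.000115), and 2 higher and none lower in Lat-M2. With scaling these were 2 higher and 3 lower in Lat-M1 and 2 higher and 1 lower in Lat-M2.

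Partner proteins of the carriers had 2 of 5 tested members higher and 1 lower in Lat-M1, and 1 higher and none lower in Lat-M2. After scaling they had 2 higher and 2 lower in Lat-M1, and 1 higher and 2 lower in Lat-M2. Of all tested genes, unscaled, 33.2% were higher and 11.6% lower in Lat-M1, and 12.7% higher and 2.24% lower in Lat-M2. ANPEP, a brush border peptidase that associates with SLC6A19, was at 79.2 and 85.1 TPM in Lat-M1, 224 and 212 TPM in Lat-M2, and 51, 53.4 and 55.6 TPM in PA. Unlike the brush border carriers it rose in both Lat-M groups against PA (0.61 ± 0.063, limma adjusted p = 0.000263, and 2.01 ± 0.063, limma adjusted p = 9.64e-06). CD44, an adhesion receptor reported to stabilise SLC7A11 at the cell surface, was at 284 and 317 TPM in Lat-M1, 146 and 130 TPM in Lat-M2, and 133 to 145 TPM in PA (1.09 ± 0.079 in Lat-M1, limma adjusted p = 4.77e-05). Genes of lysosomal amino acid sensing had 10 of 29 higher and 5 lower in Lat-M1 and 4 higher and 2 lower in Lat-M2. Scaling gave 5 higher and 9 lower in Lat-M1 and 1 higher and 7 lower in Lat-M2. Over all tested genes scaling moved the shares the same way, to 24.0% higher and 23.0% lower in Lat-M1. In Lat-M2 they went to 7.47% higher and 8.41% lower. TFEB, a transcription factor of lysosomal genes, rose in Lat-M1 (1.31 ± 0.14, limma adjusted p = 0.000333), and SESN1, a member of the sestrin family of which SESN2 senses leucine, was lower in Lat-M2 than in Lat-M1 (-1.04 ± 0.096, limma adjusted p = 0.00022). Other amino acid and peptide carriers had 6 of 16 higher and 2 lower in Lat-M1 and none called in Lat-M2, where limma left 3 at an unadjusted p under 0.05. Scaled counts were 5 higher and 4 lower in Lat-M1, and 1 lower in Lat-M2.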

How the data were processed

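The deposited files hold TPM per gene, 1 library each, a unit read from the values: every library sums to 1000000 over the listed genes. TopHat2 2.2.4 and hg19 are named in the submitters' processing notes; the quantifier, annotation, filters and use of strand are not given in the sources used here. Per the labels, libraries were made with 1 of 2 kits, without saying which for each.

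Members were matched by symbol, which each occurred under 1 identifier. Values were taken as log2(TPM + 1), and 16724 genes averaging 1 TPM or more were tested with limma 3.58.1 (R 4.3.3, statmod 1.5.0; trend and robust options, Benjamini-Hochberg adjustment at 0.05), in a fit of 3 groups for pairwise comparisons and of 2 groups for Lat-M against PA. The fits were tested on simulated data. Alternatives were a pseudocount of 0.1, no filter, a minimum mean of 5 TPM, median-ratio scaling, leaving out 4 structural RNAs, each library left out, a replicate block and, for Lat-M against PA, 2 further fits.

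All tested members are accounted for. Those given in every library have a call with a log2 fold change of at least 1, or are on a list of transporters of known role; SLC6A13, SLC38A6, SLC38A7 and SLC38A10 were added. Members of other lists are named at a called log2 fold change of at least 1. The members and lists were chosen with earlier results of these data known. Gene spans came from GENCODE v29 and promoters from RefSeq, which held 33 of the 46 members.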

Additional observations from a re-analysis of the deposited data

Results flagged for a closer look

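For 11 of 23 tested members the effect against PA differed between Lat-M2 and Lat-M1, by the test of that difference in the limma fit. The same test called 36.0% of all tested genes. As log2 difference of Lat-M2 minus Lat-M1, the brush border carriers SLC7A9 (3.97), SLC3A1 (2.23) and SLC1A1 (2.15) stood well above the other members. SLC7A9 and SLC1A1 were called in opposite directions against PA, lower in Lat-M1 and higher in Lat-M2. Smaller differences were those of SLC6A8 (0.47), SLC36A4 (0.36), SLC7A1 (-0.39), SLC1A5 (-0.43), SLC7A11 (-0.45), SLC36A1 (-0.51), SLC6A13 (-0.57) and SLC1A4 (-0.62).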

How the results depend on the processing

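Members called in Lat-M1 against PA were 18 of 23 as reported, 14 of 19 at a mean of at least 5 TPM and 24 of 46 without a filter. In Lat-M2 against Lat-M1 they were 11 of 23, 9 of 19 and 15 of 46 in the same order. Of all tested genes, 44.8% and 36.0% were called as reported and 23.6% and 18.8% without a filter. At a mean of at least 5 TPM, 6326 and 5146 of 11444 genes were called. The shares of members were 78.3% and 47.8% as reported, and 52.2% and 32.6% without a filter. The counts of members stayed within 1.5 times under every alternative run. In Lat-M2 against PA, 12 were called, and 8 without any one of the PA libraries. Over all 16724 genes 2494 were called as reported, and 1138 to 1276 without any one of the PA libraries. Lat-M against PA was unsteady, for the members and over all genes. As reported 4 members were called (485 of 16724 genes), 1 without a filter (107 of 32367) and 2 at a mean of at least 5 TPM (531 of 11444). Median-ratio scaling called 2 members (209 of 16724 genes), and leaving out structural RNAs called 1 (175 of 16720). The average within the fit of 3 groups called 18 members, where 36.5% of all tested genes were called. With libraries of a Lat-M number as correlated repeats, 0 members were called. There limma left 15 at an unadjusted p under 0.05, and called 0.526% of all tested genes. Single libraries left out gave 0 to 10 members (18 to 1869 of all tested genes). SLC38A9 in Lat-M1 against PA reversed, to -0.13 with scaling and -0.16 with structural RNAs left out, and the scaling itself moves all values down by the shift of the median. Leaving out a library of a Lat-M number leaves 1, which is then assumed to vary like the other groups.

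The labels do not say whether libraries with the same last number are pairs. After removing group means the correlation of same-numbered libraries was -0.082 to 0.0312 and 4 of 12 were closest to their own number. In a group of 2 libraries the remainders mirror each other, so the 12 are not separate checks and cannot decide pairing. With the last number as a replicate block, limma called 17 members in Lat-M1 and 8 in Lat-M2 against PA, 10 in Lat-M2 against Lat-M1, and 0 in Lat-M against PA (10 at an unadjusted p under 0.05). Over all 16724 genes the block gave 5908, 943, 4795 and 0 calls in the same order of comparisons.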
